A study of Mus musculus with 32 samples.

Results

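The genes described here carry fatty acids into heart cells, hold or activate them, move them into mitochondria, break them down by beta-oxidation and use ketone bodies. They are a list of 39 genes, set by name with no measured value in the rule, among 18193 genes that the array's annotation named alone. The list was chosen with earlier results of these data known, so its contrast with all genes is not an independent test. Of the 39, 37 were analysed, each through 1 probe set, the one with the highest mean over the arrays, and all 37 were among the 11014 genes that passed a filter on low signal. Acsl1, which codes for the main long-chain acyl-CoA synthetase of heart muscle, was not analysed here. Cpt1b, the muscle form of carnitine palmitoyltransferase 1, was not analysed either, because its probe set also names 2 other genes.

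The series measured RNA of the left ventricle in 32 C57Bl6 mice, 1 array per mouse, with 4 mice in each of 8 groups. The groups crossed sex, genotype (wild type, or estrogen receptor beta knockout as labelled) and surgery (sham, or transverse aortic constriction, TAC, which narrows the aorta and loads the left ventricle with pressure). All mice were labelled as 10 weeks old, with no word on whether that was the age at surgery. The labels of the knockout TAC mice give 9 weeks of constriction, and those of the wild-type TAC mice give no duration. The labels do not describe the knockout allele. The study asked how sex and the receptor bear on the response to pressure load. A stratum below means 1 sex of 1 genotype, compared between TAC and sham.

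The adult heart draws most of its energy from fatty acids. Lipoprotein lipase and CD36 bring them to and across the membrane, acyl-CoA synthetases activate them, and the carnitine shuttle takes them into mitochondria. There, repeated rounds of dehydrogenation, hydration, dehydrogenation and thiolysis shorten the chain, and electron-transfer flavoprotein passes electrons on to the respiratory chain. Many of these genes are known targets of the nuclear receptor PPARalpha and its coactivator PGC-1alpha, and they are known to fall in pressure-overloaded hearts of rodents.

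Values are deposited signal intensities, and differences, given in log2 units, are of log2(signal + 32) between group means with their standard error (SE), tested with limma over all 11014 genes. A gene is called higher or lower where the Benjamini-Hochberg adjusted p was under 0.05. All arrays were scaled to the same trimmed mean of 500, and their median signal lay between 101.5 and 127.7. The array of wild-type female TAC replicate 1 stood apart, since its brightest probe set read 95437 where the maxima elsewhere were 42480 to 64129, and knockout-labelled male TAC replicate 3 had the lowest mean over the 37 genes. The probe set for Esr2, the gene labelled as knocked out, read 3.6 to 67.7 in wild-type mice and 25.8 to 196.8 in knockout-labelled mice, ranges that overlap with the highest values where the label says the gene is lost. It lay below the signal of 106.1 used as the filter on 24 of 32 arrays, and its place relative to the deleted part is not known here, so it does not check the genotype labels. All 12 cardiomyocyte markers listed were measured above the filter, while the skeletal muscle genes Myh1, Myh2, Myh4, Actn3, Tnnt3, Tnni2 and Mylpf were below it. The mean log2 signal of the 6 atrial markers above the filter spanned 8.09 to 12.7 in sham and 8.96 to 11.7 in TAC mice.

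Most of the pathway was lower after TAC. In the mean of the 4 strata 28 of the 37 genes were lower after TAC, 1 was higher and 8 were not called, where 41.2% of all genes tested were called, 17.8% as lower and 23.5% as higher. The median change of the 37 genes was -0.39, against 0.02 for all genes tested. By step, 12 of 14 oxidation genes and 3 of 3 electron-transfer genes were lower, with medians of -0.46 and -0.50. For the carnitine shuttle 5 of 6 were lower (median -0.36), for uptake 4 of 5 (median -0.26), for lipid droplets and uncoupling 1 of 4 and for activation 1 of 2; differences between steps were not tested. Among 3 genes of ketone use, 2 were lower and Bdh1 was higher. For 18 of the 37 genes all 16 TAC mice lay below the median of the 16 sham mice, which was so for 5.42% of all genes tested. In bulk tissue, fewer cells of a type and less RNA per cell cannot be told apart.

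**Figure D1:**
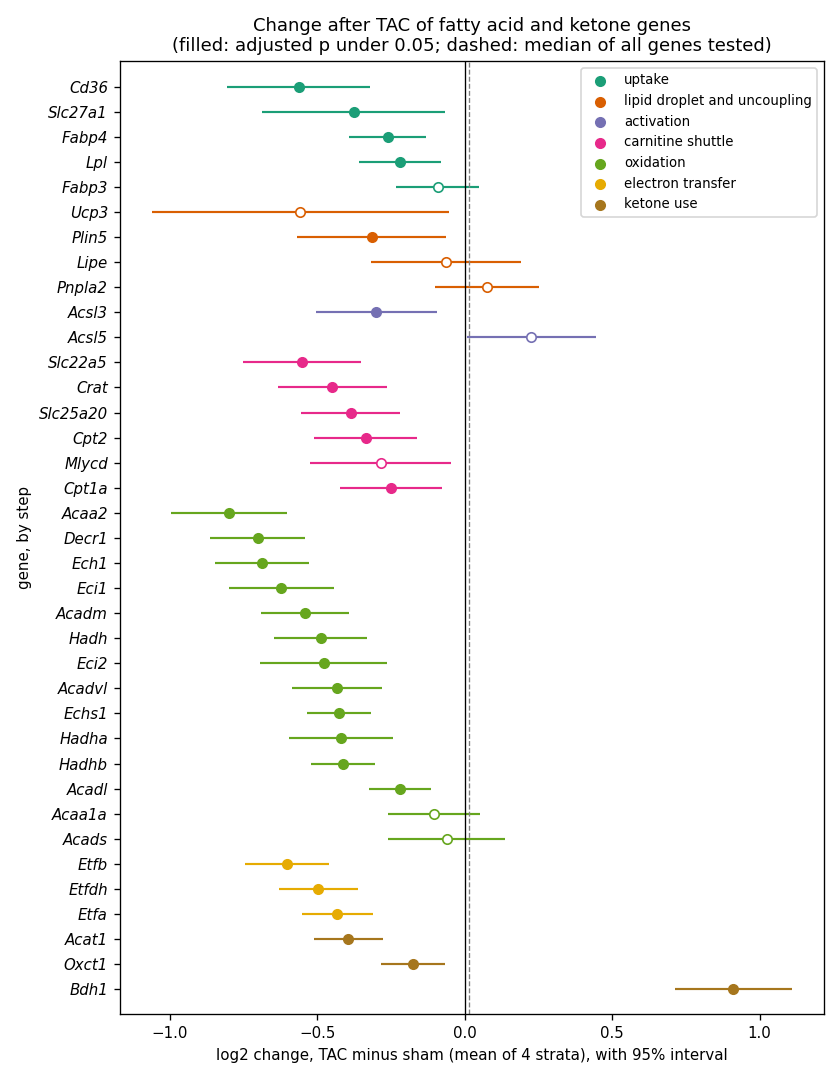
Change in log2(signal + 32) after TAC for each of the 37 genes (mean of the 4 strata, 16 TAC and 16 sham mice); bars are 95% intervals, filled points have an adjusted p under 0.05, and colours give the step. Acaa2 lies furthest left at -0.80, Bdh1 alone lies far to the right at 0.91, and the dashed line marks the median of all genes tested at 0.02.

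Of 5 uptake genes, 4 were lower and Fabp3 was not called. Cd36, the membrane carrier for long-chain fatty acids, fell by 0.56 (SE 0.12, adjusted p = 0.000369), a ratio of signal + 32 of 0.677. Cd36 in wild-type females read 24649, 23569, 22250.4 and 25152 in sham mice and 18804, 21878, 17153 and 16249 in TAC mice. Cd36 in wild-type males read 22701, 24326, 23648 and 22357 in sham mice and 11704, 16363, 15928 and 17939.8 in TAC mice. TAC mice lay below sham mice without overlap in both wild-type strata. Cd36 in knockout-labelled females read 11646, 11938, 21074 and 21708 in sham mice and 10585, 10472, 9583 and 19157 in TAC mice. Cd36 in knockout-labelled males read 27255, 26277, 24299.6 and 10002 in sham mice and 10247, 11849.7, 12753 and 10216 in TAC mice. In the knockout-labelled strata the groups overlapped: sham females 1 and 2 were near the TAC level and 3 and 4 were not, and male sham replicate 4 read 10002 where the other 3 read 24300 to 27255. Leaving out that male gave a Cd36 change of -0.65, and the range over 32 fits that each left out 1 array was -0.65 to -0.53.

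Fabp3, the abundant fatty acid binding protein of heart muscle, was not called (-0.09, adjusted p = 0.288). Fabp3 in wild-type females read 50904, 53588, 58571 and 54278 in sham mice and 80157, 50749, 42894 and 41842 in TAC mice. Fabp3 in wild-type males read 51743, 54157, 53599 and 55779 in sham mice and 50363, 40519, 42625 and 42894 in TAC mice. The wild-type males were the only stratum without overlap. Fabp3 in knockout-labelled females read 59224, 56665, 44971 and 45001 in sham mice and 42480.3, 52889, 54017 and 49002 in TAC mice. Fabp3 in knockout-labelled males read 50082, 50463, 47532 and 48313 in sham mice and 58996, 51024, 43557 and 48722 in TAC mice. Both knockout-labelled strata overlapped throughout. On every array this probe set read at least 84.0% of the array's highest signal. Of the 32 fits that each left out 1 array, Fabp3 was called lower in 1, where the wild-type female TAC mouse 1 was missing (-0.14, adjusted p = 0.0239), and its direction turned under quantile normalization (0.06), under the mean of its probe sets (0.01) and with a Gapdh 3′ to 5′ term (0.02). Of the other 3 uptake genes, the endothelial and adipocyte binding protein Fabp4 changed by -0.26 and the lipase Lpl, which frees fatty acids from lipoproteins, by -0.22. Both calls were lost under quantile normalization (Fabp4 -0.12, adjusted p = 0.16, and Lpl -0.05, adjusted p = 0.0844). Slc27a1, which codes for fatty acid transport protein 1, changed by -0.38 with an adjusted p of 0.0468. Its call was lost when any 1 of 21 of the 32 arrays was left out, and also with median centring (-0.35), a pseudocount of 1 (-0.38), no filter (-0.38), the replicate block (-0.38) or the Gapdh term described below (-0.41). Its 4 strata ran from -0.87 in wild-type females to 0.45 in knockout-labelled males. Another probe set for Slc27a1 gave -0.70.

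Because Cd36, Lpl, Fabp4 and Plin5 are also genes of fat cells and capillaries, markers of those cells were read beside them. Adipoq had a median signal of 52.2 in sham and 49.95 in TAC mice and Lep did not pass 41.7 in any mouse. Of 6 adipocyte markers on the array, Cidea alone passed the filter, and it was not called. Of 10 endothelial markers 3 were higher and 1 lower, 40% called and so near the 41.2% of all genes tested. Their mean log2 signal spanned 10.3 to 11.1 in sham and 10.7 to 11.2 in TAC mice, and their part in the changes was not tested.

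Of the 4 genes of lipid droplets and uncoupling, 1 was called. Plin5, a droplet protein that ties lipid droplets to mitochondria, fell by 0.32 (adjusted p = 0.0409), and that call was lost when any 1 of 15 of the 32 arrays was left out, with median centring (-0.29), with no filter (-0.32) and with the mean of its probe sets (-0.24). Ucp3, a mitochondrial inner-membrane carrier known as a PPAR target, changed by -0.56 with a wide SE of 0.25 and was not called (adjusted p = 0.0696; called when any 1 of 6 arrays was left out). Ucp3 in wild-type females read 865, 2098, 448 and 699.8 in sham mice and 479, 884, 349 and 326 in TAC mice. Ucp3 in wild-type males read 1427, 782, 541 and 388 in sham mice and 1132, 487, 365 and 1127 in TAC mice. Wild-type sham mice spanned 388 to 2098, so both strata overlapped. Ucp3 in knockout-labelled females read 1291, 1379.5, 609 and 486 in sham mice and 322, 641, 832 and 735 in TAC mice. Ucp3 in knockout-labelled males read 1386, 759, 1191 and 555 in sham mice and 606, 1108, 157 and 482 in TAC mice. The lowest Ucp3 signal of all 32 mice was in knockout-labelled male TAC replicate 3. Pnpla2, adipose triglyceride lipase, was not called (0.08, adjusted p = 0.499). Pnpla2 in wild-type females read 4675, 5405, 4763 and 3928 in sham mice and 4024, 4139, 4863 and 4596 in TAC mice. Pnpla2 in wild-type males read 4939, 4637, 4658 and 4956 in sham mice and 5325, 3793, 4039 and 4833 in TAC mice. Sham and TAC mice overlapped in both. Pnpla2 in knockout-labelled females read 4932, 6109.8, 3900.1 and 4464 in sham mice and 4067, 6189, 5753 and 5339 in TAC mice. Pnpla2 in knockout-labelled males read 3800.0, 2625, 4438 and 5464 in sham mice and 5501, 6029.5, 3895 and 5085 in TAC mice. Here too they overlapped, and 7 of 16 TAC mice lay below the sham median of 4667. Lipe, hormone-sensitive lipase, changed by -0.06 (adjusted p = 0.711). The signs for Pnpla2 and Lipe turned under some settings given at the end.

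Of the 2 acyl-CoA synthetases analysed, 1 was called. Acsl3, linked to droplet growth, fell by 0.30 (SE 0.1, adjusted p = 0.0171) from a low signal. Acsl3 in wild-type females read 282, 189, 203 and 229 in sham mice and 198, 175, 237 and 236 in TAC mice. Acsl3 in wild-type males read 258, 248, 242 and 247 in sham mice and 174, 197, 165 and 185 in TAC mice. Only the wild-type males separated without overlap. Acsl3 in knockout-labelled females read 147, 233, 212 and 284 in sham mice and 164, 162, 210.2 and 252 in TAC mice. Acsl3 in knockout-labelled males read 255, 277, 264 and 123 in sham mice and 195, 123, 148 and 92.5 in TAC mice. In knockout-labelled males 3 sham mice lay above every TAC mouse, and replicate 4 read 123. Acsl5, a mitochondrial and endoplasmic reticulum synthetase, was not called (0.23, adjusted p = 0.0893). Acsl5 in wild-type females read 805, 1038, 906 and 817 in sham mice and 1117, 1269, 1250.1 and 998 in TAC mice. Acsl5 in wild-type males read 946, 928, 826 and 984 in sham mice and 811, 1167, 1129 and 1260.1 in TAC mice. TAC values reached above the sham range in both strata, with overlap. Acsl5 in knockout-labelled females read 615, 617, 1094 and 1062 in sham mice and 1077, 697, 699 and 1058 in TAC mice. Acsl5 in knockout-labelled males read 898, 822, 1039.8 and 536 in sham mice and 832, 786, 1554 and 802 in TAC mice. Knockout-labelled male TAC replicate 3 stood at 1555, where the other 3 read 786 to 832, and without it the change was 0.17.

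Of the 6 carnitine shuttle genes analysed, Cpt1b not among them, 5 were lower. Slc22a5, the OCTN2 transporter that brings carnitine into the cell, fell by 0.55 (SE 0.097, adjusted p = 4.42e-05). Slc22a5 in wild-type females read 1213, 1533, 1095 and 1024 in sham mice and 1026, 1057, 798 and 971 in TAC mice. Slc22a5 in wild-type males read 1188, 1339.7, 1352 and 985 in sham mice and 1125, 782, 1022 and 1071 in TAC mice. Both wild-type strata overlapped, although all 16 TAC mice of the series lay below the sham median of 1276. Slc22a5 in knockout-labelled females read 1395, 945, 1198 and 1342 in sham mice and 760.1, 667, 825 and 1025 in TAC mice. Slc22a5 in knockout-labelled males read 1604, 1610.5, 1446 and 1132 in sham mice and 606, 1197, 572 and 496 in TAC mice. With a beta-actin RNA quality term described below, the Slc22a5 change was -0.47 and was not called (adjusted p = 0.153). The 3 knockout-labelled male TAC mice at 496 to 606 lay under every other mouse, while replicate 2 read 1197, inside the sham range. Crat, carnitine acetyltransferase, changed by -0.45, and the inner-membrane carrier Slc25a20, which swaps acylcarnitine for carnitine, by -0.39. Cpt2, which rebuilds acyl-CoA in the matrix, changed by -0.33; these 3 were called lower, Cpt2 not with the mean of its probe sets (-0.21, adjusted p = 0.0671). Mlycd, malonyl-CoA decarboxylase, which removes the inhibitor of carnitine palmitoyltransferase 1, changed by -0.28 and just missed the threshold (adjusted p = 0.0519; called when any 1 of 9 arrays was left out). Cpt1a, the liver form of the transferase that makes acylcarnitine, fell by 0.25 (adjusted p = 0.019). Cpt1a in wild-type females read 945, 1374, 872 and 753 in sham mice and 746, 842, 775 and 685 in TAC mice. Cpt1a in wild-type males read 1059, 957, 813 and 878 in sham mice and 890.5, 921, 770.3 and 1172 in TAC mice. The wild-type males showed a change of 0.01 and overlapped. Cpt1a in knockout-labelled females read 898, 905, 855 and 908 in sham mice and 791, 709, 542 and 785 in TAC mice. Cpt1a in knockout-labelled males read 1435, 1109.5, 1144 and 753 in sham mice and 699.9, 917, 974 and 830.1 in TAC mice. Knockout-labelled females were the only stratum where the Cpt1a groups did not overlap. Its other probe sets changed by -0.03 and -0.15 (unadjusted p from limma 0.841 and 0.181), and with the mean of its probe sets Cpt1a was not called (-0.14, adjusted p = 0.216).

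**Figure D2:**
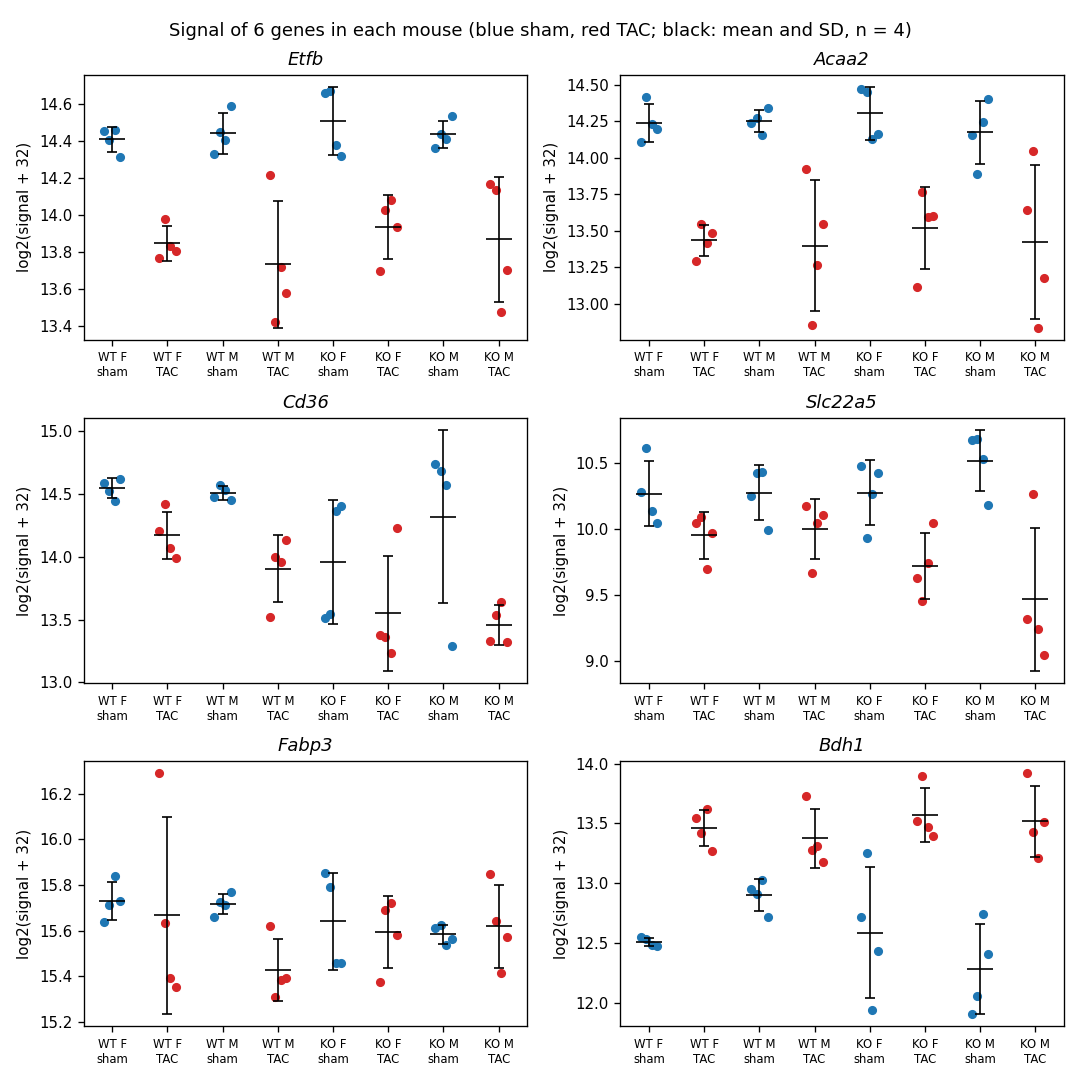
log2(signal + 32) of 6 genes in each mouse by group (WT wild type, KO labelled knockout, F female, M male; 4 mice a group; black bars mean and SD). Etfb separates sham (blue) from TAC (red) in every stratum, Acaa2 in 3 of 4, Cd36 in the wild type, Slc22a5 and Fabp3 overlap in most or all strata, and Bdh1 runs the other way.

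Of the 14 oxidation genes, 12 were lower. Acaa2, a mitochondrial ketoacyl-CoA thiolase of the thiolysis step, fell by 0.80 (SE 0.096, adjusted p = 1.27e-07), a ratio of signal + 32 of 0.574. Acaa2 in wild-type females read 17606, 21874, 19214 and 18789.8 in sham mice and 10008, 11916, 10920.0 and 11414 in TAC mice. Acaa2 in wild-type males read 19315, 19797, 18261 and 20728 in sham mice and 15498, 7388, 9806 and 11902 in TAC mice. Every wild-type TAC mouse lay below every wild-type sham mouse of its sex. Acaa2 in knockout-labelled females read 22681, 22364, 17896 and 18313 in sham mice and 8818, 13881, 12359 and 12369.6 in TAC mice. Acaa2 in knockout-labelled males read 18227, 15171, 19378 and 21606 in sham mice and 12723, 16857, 7275 and 9201 in TAC mice. Knockout-labelled females also separated, and in males TAC replicate 2 at 16857 overlapped sham replicate 2 at 15171. Auxiliary enzymes for unsaturated fatty acids fell together: Decr1, dienoyl-CoA reductase (-0.70), Ech1, which moves double bonds of dienoyl-CoA (-0.69), and the enoyl-CoA isomerases Eci1 (-0.62) and Eci2 (-0.48). Ech1 spanned 27445 to 40273 in sham mice (median 34485) and 14873 to 28715 in TAC mice (median 22664), and did not overlap within any stratum. Eci1 spanned 12475 to 15907 in sham mice (median 13787) and 5671 to 12841 in TAC mice (median 8863), again without overlap within any stratum.

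Of 4 acyl-CoA dehydrogenases, 3 were called lower. Acadm, for medium chains, changed by -0.54 (sham 26889 to 39676, median 35608; TAC 17267 to 30394, median 24279), Acadvl, for very long chains, by -0.43 and Acadl, for long chains, by -0.22, all called lower. Acads, for short chains, was not called (-0.06, 95% interval -0.26 to 0.14). Acads in wild-type females read 3585, 4459, 3647 and 3434 in sham mice and 3665, 3309, 3216 and 3414 in TAC mice. Acads in wild-type males read 4131, 3861, 4460.4 and 4101 in sham mice and 4425, 2999, 2833 and 3476 in TAC mice. These overlapped in both sexes. Acads in knockout-labelled females read 4457, 5437, 3496 and 3642 in sham mice and 3102, 5689, 4237 and 3643 in TAC mice. Acads in knockout-labelled males read 3011, 2358, 3730.4 and 4959 in sham mice and 5212, 4415, 2960.5 and 3722 in TAC mice. Sham and TAC mice were intermixed in both. Echs1, the short-chain enoyl-CoA hydratase, changed by -0.43, and Hadh, the short-chain hydroxyacyl-CoA dehydrogenase, by -0.49, both called lower. Acaa1a, which codes for the thiolase of peroxisomes, was not called (-0.10, adjusted p = 0.289).

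Hadha and Hadhb code for the alpha and beta subunits of the mitochondrial trifunctional protein, which carries out the later steps for long chains. Hadha fell by 0.42 and Hadhb fell by 0.41. Hadhb signals ran from 30586 to 39104 in sham mice (median 33311) and from 20698 to 32756 in TAC mice (median 25852). The genes are neighbours in head-to-head orientation: in GRCm38.p6 their RefSeq starts lie 273 bases apart on chromosome 5, Hadha on the minus strand (start 30154980) and Hadhb on the plus strand (start 30155253). The window from 250 bases before to 50 bases after the Hadhb start, chr5:30155003-30155302 on the plus strand, shares 228 bases with the Hadha window. It is shown because 1 stretch lies between the 2 genes, and was chosen after their values were seen. Their similar change is not particular to them, since Echs1 and Etfa each changed by -0.43. Another Hadhb probe set changed by -0.24, and Hadha was called lower in 1 stratum, Hadhb in 3. A shared cause was not tested. No base is in capitals, since no motif searched was found in the window.
Hadhb: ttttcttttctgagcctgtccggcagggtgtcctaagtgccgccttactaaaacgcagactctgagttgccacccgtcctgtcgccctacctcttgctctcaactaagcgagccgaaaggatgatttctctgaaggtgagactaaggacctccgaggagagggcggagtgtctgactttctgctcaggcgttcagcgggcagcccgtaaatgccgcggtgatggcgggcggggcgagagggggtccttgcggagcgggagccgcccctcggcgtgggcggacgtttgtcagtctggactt

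All 3 electron-transfer genes were lower. Electron-transfer flavoprotein, coded for by Etfa and Etfb, takes electrons from the acyl-CoA dehydrogenases, and Etfdh codes for the oxidoreductase that hands them to ubiquinone. Etfb fell by 0.60 (SE 0.07, adjusted p = 6.91e-08). Etfb in wild-type females read 22478, 21730.0, 22486 and 20368 in sham mice and 13949.5, 16152, 14552 and 14280.1 in TAC mice. Etfb in wild-type males read 20546, 22373, 21659 and 24656 in sham mice and 19019, 10956, 13458 and 12219 in TAC mice. Neither wild-type stratum overlapped. Etfb in knockout-labelled females read 25914, 26103, 21258 and 20452 in sham mice and 13244, 16698, 17344 and 15632 in TAC mice. Etfb in knockout-labelled males read 21035, 22178, 21758 and 23741 in sham mice and 18380.1, 17981, 11360.1 and 13330.2 in TAC mice. Etfb was the only gene of the 37 for which all 16 TAC mice, at most 19019, lay below all 16 sham mice, at least 20368. The share of all genes tested that did so was not counted, nor that of genes without overlap within any stratum. Etfa fell by 0.43 (SE 0.059, adjusted p = 9.77e-07). Etfa in wild-type females read 20417, 21718, 23115 and 19649.9 in sham mice and 16860.0, 16825, 13924 and 15951 in TAC mice. Etfa in wild-type males read 20042, 20329, 21939 and 22030.5 in sham mice and 19171, 12424, 14547 and 14272 in TAC mice. Neither of these overlapped. Etfa in knockout-labelled females read 24279, 23303, 18586 and 19243 in sham mice and 15772, 19015, 16860.0 and 16428 in TAC mice. Etfa in knockout-labelled males read 21694, 23701, 20792 and 21292 in sham mice and 18394, 17059, 13032 and 14226 in TAC mice. Knockout-labelled females overlapped and males did not. Etfdh changed by -0.50, spanned 15179 to 20229 in sham mice (median 17782) and 9342 to 16046 in TAC mice (median 12050), and did not overlap within any stratum.

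Of the 3 genes of ketone use, 1 was higher and 2 were lower. Bdh1, D-beta-hydroxybutyrate dehydrogenase, which opens ketone body oxidation, was higher by 0.91 (SE 0.097, adjusted p = 1.71e-08), a ratio of signal + 32 of 1.88. Bdh1 in wild-type females read 5948, 5892, 5704 and 5671 in sham mice and 11896, 10911, 12530.2 and 9842 in TAC mice. Bdh1 in wild-type males read 7908, 7674, 8325 and 6704 in sham mice and 13561, 9887, 10153 and 9215 in TAC mice. TAC mice lay above sham mice without overlap in both. Bdh1 in knockout-labelled females read 6702, 9748, 3894 and 5508 in sham mice and 11708, 15235, 11325 and 10719 in TAC mice. Bdh1 in knockout-labelled males read 3807, 4229, 6828 and 5414 in sham mice and 15458, 10966, 9433 and 11652 in TAC mice. The same held in both knockout-labelled strata, and none of the 16 TAC mice lay below the sham median of 5920 (0 of 16). Sham levels themselves varied, up to 9748 in knockout-labelled female replicate 2. Oxct1, the transferase that makes acetoacetyl-CoA, fell by 0.18 (adjusted p = 0.00927), a call lost under quantile normalization (-0.03, adjusted p = 0.434) and with the mean of its probe sets (-0.12, adjusted p = 0.0926). Acat1, the mitochondrial acetoacetyl-CoA thiolase, fell by 0.39 (SE 0.057, adjusted p = 2.44e-06). Acat1 in wild-type females read 16089, 19621, 18823 and 16955 in sham mice and 15629, 15311, 12770.1 and 13767 in TAC mice. Acat1 in wild-type males read 17446, 17957, 17579 and 17606 in sham mice and 16165, 10968, 11832 and 13256 in TAC mice. Wild-type TAC and sham mice did not overlap. Acat1 in knockout-labelled females read 18316, 16002, 15877 and 16241 in sham mice and 13700.5, 12805, 11740.1 and 13365 in TAC mice. Acat1 in knockout-labelled males read 17332, 15771, 18031 and 15857 in sham mice and 12163, 15822, 10785 and 10822 in TAC mice. Females did not overlap, and in males TAC replicate 2 at 15822 passed the lowest sham mouse at 15771.

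Within each stratum, with 4 mice against 4, fewer genes passed the threshold. In wild-type females 8 were lower and 1 higher, where 3.28% of all genes were called (1.23% lower, 2.05% higher). In wild-type males 14 were lower and 0 higher, against 5.56% of all genes (2.45% and 3.11%). In knockout-labelled females the counts were 7 and 1, against 5.58% (1.83% and 3.75%), and in knockout-labelled males 16 and 1, against 32.6% (12.9% and 19.6%). The medians were -0.38, -0.45, -0.34 and -0.36. Acaa2, Decr1, Ech1 and Etfb were lower in all 4 strata (0.481% of all genes tested), Hadhb, Echs1, Eci1, Etfa and Etfdh in 3 (0.654%), and 28 of the 37 genes had a change below 0 in all 4 (23.2%). Bdh1 was called higher in 3 strata and not in wild-type males (0.47, adjusted p = 0.161). TAC mice lay below sham mice without overlap for 20, 21, 11 and 9 genes in the order above, where 6.47%, 8.11%, 4.19% and 6% of all genes tested did so. Single arrays moved the counts: the 9 calls in wild-type females became 2 or 1 when TAC mouse 1 or 3 was left out, and 1, 2 or 4 on leaving out sham mouse 2, 3 or 4. The 14 calls in wild-type males became 4 or 8 when TAC mouse 2 or 3 was left out, and the 8 in knockout-labelled females became 4, 5 or 5 on leaving out TAC mouse 1, TAC mouse 2 or sham mouse 4. A fit on only the 8 mice compared gave 16, 23, 5 and 9 calls, and the share of all genes called in those fits is not given here.

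The strata were read again with the RNA quality terms described below, each taken in turn. With the Gapdh term 0 and 3 genes were lower in wild-type females and males and 5 and 11 in their knockout-labelled counterparts, and 0 were lower in all 4. With the beta-actin term the counts were 4, 8, 1 and 9, again with 0 lower in all 4. Over all genes, calls in the mean of the 4 strata also became fewer with either term. Shares of all genes by stratum are not given here for these fits. Bdh1 then stayed higher in 3 strata with the Gapdh term (0.95 in wild-type females, 0.98 and 1.24 in knockout-labelled females and males) and in 1 with the beta-actin term, the knockout-labelled males (0.95, adjusted p = 0.0162). Cardiomyocyte markers also moved by stratum: the median change of the 12 was -0.02, -0.37, -0.17 and -0.06 in the same order. The mean of those markers changed by -0.09, -0.39, -0.19 and -0.10, where the mean of the 37 genes changed by -0.33, -0.40, -0.29 and -0.31. The 2 means were alike in wild-type males only, and the part of the markers in the changes was not tested.

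**Figure D3:**
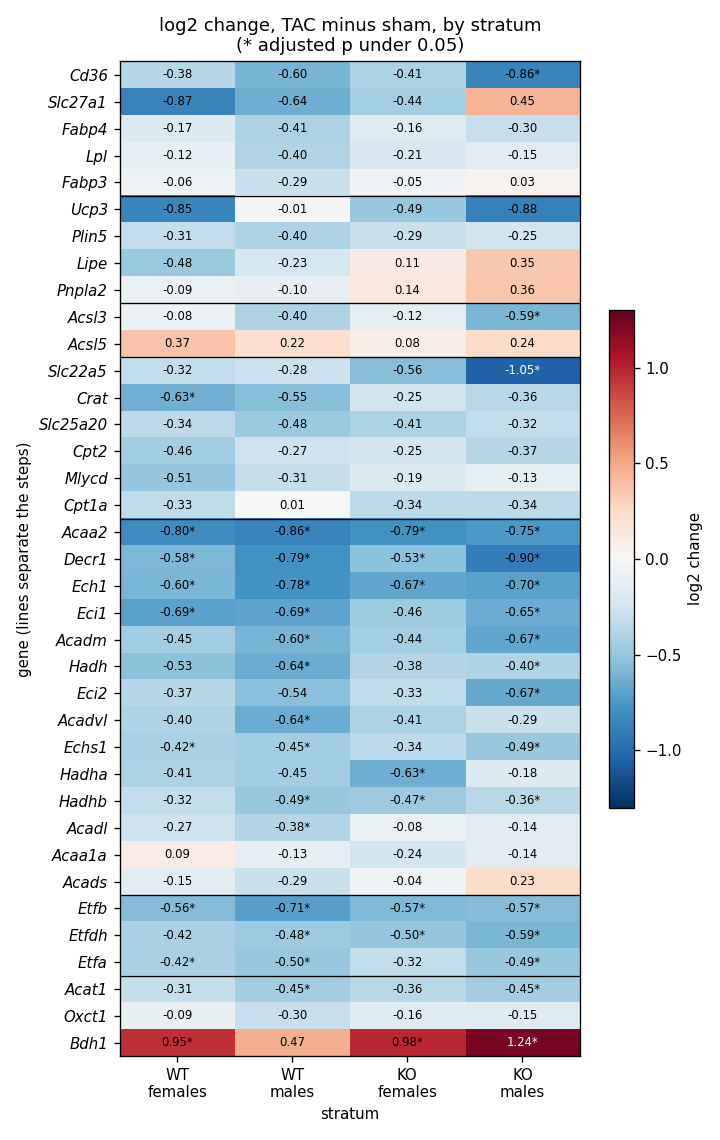
log2 change after TAC for each of the 37 genes (rows, grouped by step) in each stratum (columns; 4 TAC and 4 sham mice each); blue is lower and red higher after TAC, and a star marks an adjusted p under 0.05. Acaa2, Decr1, Ech1 and Etfb carry a star in all 4 columns, and Bdh1 is the only gene with a star on the red side.

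No difference in response by sex or genotype was called for any of the 37 genes by limma. Between females and males 0 of 37 had an unadjusted p under 0.05 (421 of all genes), and between genotypes 4 had (1219 of all genes); 0 of all genes tested were called in either comparison, 0%. In neither comparison was the share of such p-values among the 37 larger than that among all genes tested. The 4 genes with such a p between genotypes were Slc22a5, Slc27a1, Lipe and Bdh1, and their number does not set the 37 apart. Slc22a5 changed by -0.32 and -0.28 in wild-type females and males and by -0.56 and -1.05 in knockout-labelled ones, a genotype difference of -0.51 (95% interval -0.91 to -0.11, adjusted p = 0.363). Slc27a1 had a genotype difference of 0.76 (0.14 to 1.38, adjusted p = 0.379). For Bdh1 the difference was 0.40 (0.00 to 0.80, adjusted p = 0.451). The smallest p between the sexes was that of Acsl3, with a female minus male difference in response of 0.40 (-0.01 to 0.81, adjusted p = 0.9). The intervals leave room for differences as large as many of the changes themselves.

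In sham mice 0 of the 37 genes were called between the sexes (0.0726% of all genes called) or between genotypes (1.5%). Unadjusted p-values under 0.05 were seen for 1 and 6 of the 37 genes, against 642 and 1821 of all 11014. Neither share was larger than that among all genes. Slc27a1 read higher in females by 0.49 (adjusted p = 0.822). Knockout minus wild-type differences with the smallest p were those of Acadl (-0.21, adjusted p = 0.141) and Fabp4 (-0.26, adjusted p = 0.146). Sham groups differed in spread: the median over the 37 genes of the SD on the log2 scale was 0.08 in wild-type males and 0.13 in wild-type females, against 0.23 and 0.21 in knockout-labelled males and females. In TAC groups it was 0.27 and 0.18 in the wild type and 0.30 and 0.23 in the knockout-labelled.

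Over the 37 genes together, the mean log2 signal per mouse ran from 12.8 to 13.1 in sham (median 12.9) and from 12.3 to 12.9 in TAC mice (median 12.7). Wild-type male TAC replicate 1 (12.86) and knockout-labelled male TAC replicate 2 (12.88) reached the sham range, and knockout-labelled male TAC replicate 3 (12.30) was lowest. Fibroblast and macrophage markers moved with surgery: 7 of 10 and 9 of 11 were higher after TAC, none lower (0 and 0). Among them were Postn, a matrix protein of activated fibroblasts (2.67), and the complement gene C1qc (0.92). Of all genes tested, 23.5% were higher and 17.8% lower. Of 10 endothelial markers 3 were higher and 1 lower. The mean of the fibroblast markers ran from 10.9 to 11.7 in sham and 11.6 to 12.9 in TAC mice, and that of the macrophage markers from 9.91 to 10.7 and from 10.3 to 11.4. In 3 of 4 TAC groups the mouse with the lowest mean of the 37 genes had the highest macrophage mean, and in 3 of 4 the highest fibroblast mean. That mouse also had the lowest cardiomyocyte mean in knockout-labelled females (replicate 1) and males (replicate 3) and in wild-type females (replicate 3). In wild-type males replicate 2 had the lowest mean of the 37 genes and replicate 3 the lowest cardiomyocyte mean. In sham groups the mouse with the lowest mean of the 37 genes had the highest macrophage mean in wild-type females only. Such a sham mouse had the highest fibroblast mean in knockout-labelled females and wild-type males, and the lowest cardiomyocyte mean in no group. How often such matches arise by chance was not tested. Of the 12 cardiomyocyte markers, 3 were lower, with a median change of -0.15, and Ryr2, the calcium release channel, was furthest down (-0.57). The part of these cells in the changes was not tested.

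**Figure D4:**
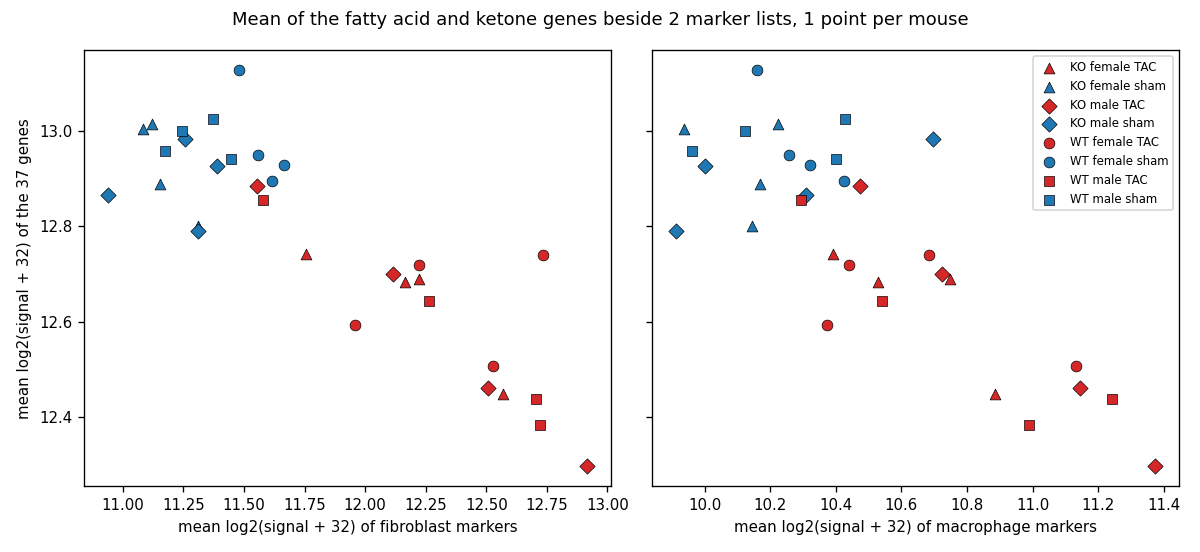
Mean log2(signal + 32) of the 37 genes (vertical axis) against the mean of 10 fibroblast markers (left) and 11 macrophage markers (right), 1 point per mouse, blue for sham and red for TAC, shape by stratum. TAC mice lie lower and further right, and the lowest point, at 12.3, is knockout-labelled male TAC replicate 3.

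RNA quality controls also moved with surgery. The log2 difference between 3′ and 5′ probe sets of beta-actin was 0.652 ± 0.152 in sham and 0.279 ± 0.117 in TAC mice (SD, n = 16 each), and that of Gapdh was -0.313 ± 0.042 and -0.243 ± 0.040. With the Gapdh difference as a term in the fit, 18 genes were lower and 1 higher (18.5% of all genes called), and with the beta-actin difference, added after seeing the data, 16 and 1 (7.88%). Calls lost with both terms were those of Cd36 (-0.42 with the Gapdh and -0.53 with the beta-actin term), Lpl (-0.06 and -0.34), Fabp4 (-0.20 and -0.18), Plin5 (-0.42 and -0.44), Acsl3 (-0.22 and -0.40), Cpt1a (-0.10 and -0.34), Cpt2 (-0.33 and -0.48), Acadl (-0.12 and -0.29) and Oxct1 (-0.10 and -0.18). The Gapdh term alone ended the call of Slc27a1 (-0.41, adjusted p = 0.197), and the beta-actin term alone those of Slc22a5 (-0.47), Hadh (-0.49) and Eci2 (-0.41). Acaa2, Decr1, Ech1, Eci1, Etfa, Etfb, Etfdh, Hadha, Hadhb, Acadm, Echs1 and Bdh1 were among those called with each of these terms. In the mean, the median of the 37 genes was -0.37 with the Gapdh and -0.49 with the beta-actin term (-0.39 without). There and by stratum it moved by less than the spread between single mice that is defined at the end. Since both differences moved with surgery, these terms cannot fully tell the part of RNA quality from that of surgery. Among the lost calls some changes shrank, such as that of Lpl (-0.22 without a term, -0.06 with the Gapdh term). Others did not, such as that of Plin5 (-0.32 without a term, -0.42 with the Gapdh term). The part of RNA quality in the changes was not tested further.

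Other genes of fatty acid use, from lists of the pathway, gave a frame for the 37. Of 13 other mitochondrial acyl-CoA enzymes 9 were lower and 0 higher (median -0.34), and the smallest p-values were those of Mmut, methylmalonyl-CoA mutase (-0.65), and Mcee, methylmalonyl-CoA epimerase (-0.42). The TCA cycle and pyruvate entry had 17 of 21 lower and 0 higher (median -0.31), and the smallest p-values were those of Sdha, a succinate dehydrogenase subunit (-0.51), and Idh3a, an isocitrate dehydrogenase subunit (-0.51). Peroxisomal oxidation had 6 of 12 lower and 2 higher (median -0.13), with Abcd3, a peroxisomal membrane transporter, at -0.63 and the bifunctional enzyme Ehhadh at -0.77. Other uptake and binding genes had 6 of 10 lower and 1 higher, with Dbi, acyl-CoA binding protein, at -0.37 and Got2 at -0.25. In triglyceride storage 4 of 14 were lower and 2 higher, 42.9% called and so near the 41.2% of all genes: Agpat2, an acyltransferase of triglyceride synthesis, rose by 0.53, and G0s2, an inhibitor of adipose triglyceride lipase, changed by -0.56. In the malonyl-CoA and AMPK list 2 of 9 were lower and 2 higher, 44.4% called and also near that share, with the AMPK subunits Prkab2 at 0.35 and Prkab1 at -0.23. Glucose entry and glycolysis had 5 of 14 lower and 4 higher (64.3% called), with the phosphofructokinase Pfkp at 0.91 and lactate dehydrogenase B, Ldhb, at -0.48.

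Of 17 regulators 5 were lower and 2 higher, 41.2% called, the same share as among all genes tested. Ppargc1a, which codes for PGC-1alpha, fell by 0.68 (SE 0.099, adjusted p = 2.85e-06), and Ppara fell by 0.35 (adjusted p = 0.00518). Esrra, the estrogen-related receptor alpha, was not called in the mean (0.11, adjusted p = 0.447). By stratum Ppargc1a changed by -0.75 and -0.59 in the wild type (females first) and by -0.56 and -0.81 in the knockout-labelled mice. Of 9 thioesterases and other PPAR targets 4 were lower and 1 higher. Acot1, a cytosolic acyl-CoA thioesterase, had the largest fall of any gene in these lists, -1.75 (SE 0.25, adjusted p = 1.92e-06), and Acss1, a mitochondrial acetyl-CoA synthetase, changed by -0.71. Pdk4, the kinase that shuts pyruvate dehydrogenase when fatty acids are used, was not called (0.05, SE 0.25, adjusted p = 0.88).

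PPARalpha and its partner RXR are known to bind a direct repeat of AGGTCA with 1 base between the repeats. In RefSeq promoter windows of GRCm38.p6 (250 bases before to 50 after each start), 32 of the 39 genes listed, Acsl1 among them, had 38 windows. On either strand and with at most 2 mismatches, the repeat was found in 5 of 38 windows (13.2%), against 3.86% of all 32851 windows: Cd36, Ucp3, Etfa, Echs1 and Slc25a20. The estrogen-related receptor site TCAAGGTCA, with no mismatch, was in 0 of 38 (0.423% of all). The estrogen receptor site, GGTCA and TGACC with 3 bases between and at most 1 mismatch, was in 0 of 38 (0.877% of all). Of these 5 genes Ucp3 was not called after TAC and the other 4 were lower. The windows of the 3 with the most negative change are shown 5′ to 3′ on the strand of the gene, with the match in capitals; it starts at -63 from the Cd36 start, at -51 for Ucp3 and at -77 for Etfa, and reads as the reverse complement in Cd36 and Etfa. The Cd36 window is chr5:17835847-17836146 (minus strand), that of Ucp3 chr7:100472741-100473040 (plus strand) and that of Etfa chr9:55512194-55512493 (minus strand). A match describes letters and not binding.
Cd36: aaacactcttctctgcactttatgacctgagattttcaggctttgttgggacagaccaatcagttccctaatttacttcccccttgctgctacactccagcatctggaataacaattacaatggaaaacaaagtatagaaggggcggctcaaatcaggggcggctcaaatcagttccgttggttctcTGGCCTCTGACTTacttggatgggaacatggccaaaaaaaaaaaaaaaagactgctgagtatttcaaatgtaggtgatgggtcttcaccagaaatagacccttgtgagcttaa
Ucp3: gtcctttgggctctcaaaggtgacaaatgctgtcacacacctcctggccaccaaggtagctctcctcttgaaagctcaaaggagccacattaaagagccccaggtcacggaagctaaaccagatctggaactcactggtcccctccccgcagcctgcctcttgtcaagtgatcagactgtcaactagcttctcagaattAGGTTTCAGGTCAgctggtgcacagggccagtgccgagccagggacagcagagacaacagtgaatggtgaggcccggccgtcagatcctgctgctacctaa
Etfa: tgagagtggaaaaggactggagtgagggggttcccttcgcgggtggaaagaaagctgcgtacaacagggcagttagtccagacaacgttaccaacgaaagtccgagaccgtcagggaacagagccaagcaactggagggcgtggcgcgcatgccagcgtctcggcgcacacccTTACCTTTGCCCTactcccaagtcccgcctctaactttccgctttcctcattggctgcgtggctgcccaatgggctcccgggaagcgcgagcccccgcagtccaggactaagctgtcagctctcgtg

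Other probe sets of the same genes mostly went the same way. Besides the 37 chosen there were 37 others in 25 of the genes. Of these, 34 had the same sign of the mean TAC change as the chosen one, 25 of them with an unadjusted p under 0.05, and 3 had the opposite sign, 0 of them with an unadjusted p under 0.05.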

How the data were processed

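Left ventricular RNA of 32 mice (8 groups of 4 individual mice) was measured on 1 Affymetrix 430 2.0 array each. The deposited values are signal intensities, made by the authors with MAS5 (version 5.0), per the submitters' processing notes; the trimmed mean of every deposited array is 500 (2% trimmed at each end). The array software's scaling leaves levels relative to that mean, and signals of different probe sets are not compared. Scanner files and scan dates are not used here.

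Of 45101 probe sets, 64 were controls, 34945 had 1 gene symbol, 932 several and 9160 none. Each gene took the probe set with the highest mean of log2(signal + 32), and genes were tested where that mean was no lower than the median over all probe sets other than controls (log2 7.109). One limma model (version 3.58.1, R 4.3.3) with a term for each of 8 groups, eBayes with a trend and Benjamini-Hochberg adjustment over 11014 genes gave 9 comparisons. Two-sided tests were used throughout. In data simulated for the mean TAC comparison over 11014 genes, of which 200 were changed, the model recovered 86% of changes of 0.5 and 100% of changes of 1 log2 unit, with 8 false calls. Noise was drawn independently for each gene, and changes under 0.5 were not simulated. In the measured data 41.2% of genes were called, so these rates may not carry over.

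The 39 genes, the pathway lists and the marker lists were chosen with earlier results of these data known. Genes shown mouse by mouse are the ones with the most negative and the highest mean TAC change in each of 7 steps; of each pathway list, the 2 genes with the smallest p are named, plus Ppara, Ppargc1a, Esrra, Acot1 and Pdk4. The ranges and medians given for other members were chosen after their values were seen. Alternatives were other normalizations, pseudocounts, filters and probe set rules, a replicate block, only the groups compared, RNA quality terms, and leaving out each array. Same-numbered mice of TAC and sham groups had correlations of their deviations between -0.34 and 0.585, and the labels tie no number to a shared litter or day, so the numbers were not used to pair mice. The number of arrays limits the precision.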

Additional observations from a re-analysis of the deposited data

Results flagged for a closer look

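Among the 14 genes shown mouse by mouse and the mean over the 37 genes, 120 groups of 4 mice were examined for a mouse far from the other 3, and 5 were found; chance marks about 1 in 20 groups. Cd36 read 19157 in knockout-labelled female TAC replicate 4, where the other 3 read 9583 to 10585, and 10002 in knockout-labelled male sham replicate 4, where the others read 24300 to 27255. That same male sham mouse had an Acsl3 signal of 123.2 against 255 to 277. Acsl5 read 1554.5 in knockout-labelled male TAC replicate 3 against 786 to 832. Acat1 read 18315.6 in knockout-labelled female sham replicate 1 against 15877 to 16241. All 5 lay in knockout-labelled groups; that pattern was not tested.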

How the results depend on the processing

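The median change of the 37 genes after TAC moved by less than the spread between replicates in every alternative tried, in the mean and in each stratum. That spread is the SD of the mean of the 37 genes per mouse, pooled over the 8 groups, and not the error of a change. In wild-type males the median went from -0.45 to -0.31 under quantile normalization. In the mean it went from -0.39 to -0.49 with the beta-actin term. With 1 array left out the median ranged from -0.43 to -0.37 in the mean, -0.42 to -0.34 in wild-type females and -0.50 to -0.39 in wild-type males. In knockout-labelled females it then ranged from -0.37 to -0.29 and in knockout-labelled males from -0.46 to -0.24. Counts of calls moved more, and shares of all genes in these alternatives are given only for the RNA quality terms in the mean. With 1 array left out they ranged from 27 to 31 in the mean, 1 to 11 in wild-type females, 4 to 18 in wild-type males, 4 to 11 in knockout-labelled females and 14 to 20 in knockout-labelled males, and stayed at 0 to 0 for sex, genotype and both sham comparisons. Quantile normalization gave 7 calls in wild-type males; centring on the array median gave 4 in wild-type females and 4 in knockout-labelled females; no filter gave 5 in wild-type females. Only the groups compared gave 16, 23, 5 and 9 in wild-type females and males and knockout-labelled females and males. The Gapdh term gave 19 in the mean, 1 in wild-type females and 3 in wild-type males. The beta-actin term, added after seeing the data because it differed with surgery, gave 17 in the mean and 4, 8, 1 and 10 in the strata in the same order. Leaving out wild-type female TAC replicate 1 and knockout-labelled male TAC replicate 3 together, also added after seeing the data, gave 28 in the mean and 7, 17, 10 and 17. Signs turned for Fabp3 (0.0575 with quantile normalization, 0.0146 with the mean of its probe sets, 0.0239 with the Gapdh term), Lipe (0.0612 with the mean of its probe sets, 0.0456 with the Gapdh term) and Pnpla2 (-0.0180 with the Gapdh term, -0.189 with the beta-actin term), none of them called; the cause was not tested.

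The labels do not say whether replicate numbers pair the mice. With the number as a replicate block 30 genes were called in the mean, 28 of the 29 called without it, losing Slc27a1 and gaining Ucp3 and Mlycd, and 9, 15, 7 and 17 in the strata; no sex, genotype or sham comparison gave a call (0). In wild-type males 3 of 4 same-number correlations were over 0.1, in wild-type females 0 of 4. In knockout-labelled females and males 2 of 4 were in each, so these correlations do not settle the question.

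Depth of signal limits Acsl3 most, whose lowest mouse read 92.5, near the filter of 106.1; Fabp3 lies at the top of the scale.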

Other observations

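In knockout-labelled female sham mice several of the 37 genes were alike in replicates 1 and 2 and apart in 3 and 4. Etfb read 25914 and 26103 in the first pair and 21259 and 20452 in the other, Acaa2 read 22681 and 22364 against 17896 and 18313, and Cd36 went the other way, 11646 and 11938 against 21074 and 21708. These genes were picked after their values were seen, and the labels name no shared litter, cage or day for these pairs.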
